A study of Mus musculus with 19 samples.

Results

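The genes described here are 10 genes widely used to mark astrocytes: Gfap, Aqp4, Aldh1l1, Slc1a2, Slc1a3, Gja1, S100b, Glul, Sox9 and Aldoc. They were taken by symbol from a table of 51789 genes, in which all 10 were found, each once, and all 10 passed the filter on low counts in every comparison. The series holds 19 libraries in 2 experiments. Each was made from total RNA cleared of ribosomal RNA, and the source was dorsal hippocampus of C57BL/6J males, 2 to 4 months old. Experiment 1 set 5 libraries of tTA+/DN+ mice against 6 of tTA+/DN- mice, all from mice with the exposure that the labels call SOR and do not spell out. Experiment 2 held mice without the DN transgene only: 4 libraries of homecage mice (2 tTA-/DN- and 2 tTA+/DN-) and 4 of SOR mice (1 tTA-/DN- and 3 tTA+/DN-). DN is the dominant-negative Nr4A transgene of the Nr4ADN line that the series' design names, and tTA is the tetracycline transactivator that switches on transgenes behind a tet promoter. All control mice of experiment 1 therefore carried tTA as well, and the labels name no promoter for tTA. As background, the published Nr4ADN line carries tTA under the Camk2a promoter, which is active in excitatory forebrain neurons and not in astrocytes. The labels do not say whether each library is a separate mouse, so the p-values measure the spread between these libraries.

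Astrocytes take up the glutamate and potassium that neurons release, turn glutamate into glutamine for return to neurons, couple to one another through gap junctions, and wrap blood vessels with endfeet rich in water channels. In the hippocampus they also supply lactate from glycolysis and glycogen, which is linked to memory consolidation. When astrocytes become reactive, in injury or inflammation, the intermediate filament gene Gfap is the classical gene to rise. The 10 genes cover these roles: glutamate handling (Slc1a2, Slc1a3, Glul), metabolism (Aldoc, Aldh1l1), endfeet and coupling (Aqp4, Gja1), and cytoskeleton, calcium binding and identity (Gfap, S100b, Sox9).

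Library totals ran from 22258159 to 66991576 counts. Levels are CPM, counts relative to the TMM-scaled library total, and the 2 experiments were scaled and tested separately. The Nr4a1, Nr4a2 and Nr4a3 genes gave mean levels between 32.4 and 60.5 CPM in the groups of experiment 1. They were not called between DN and control mice (edgeR adjusted p 0.999 for each). No separate value for the transgene was given, so these levels may include its reads. Markers of neurons, oligodendrocytes and microglia were detected in every library. The third SOR library of experiment 2, the smallest of the series, was the highest or lowest of its experiment in several of the astrocyte genes. The members' fold changes in that experiment are also given without it.

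Per kilobase of exon, the levels of the 10 genes in homecage mice spanned a wide range. Glul, the glutamine synthetase gene, was highest at 506 ± 25.8 CPM per kilobase (SD, n = 4). Aldoc, which encodes the brain aldolase of glycolysis, followed at 240.1 ± 20.6 CPM per kilobase, and Slc1a2, which encodes the main glutamate transporter GLT-1, at 215 ± 21.4. The libraries of those genes overlapped, so their order is not settled. Gfap at 101 ± 10.4 and Slc1a3, the gene of the glutamate transporter GLAST, at 87.2 ± 3.28 CPM per kilobase overlapped as well. S100b, a calcium-binding protein gene, stood at 69.9 ± 7.07, Aqp4, the water channel gene of endfeet, at 37.2 ± 4.50, and Gja1, which encodes connexin 43, at 18.1 ± 1.98 CPM per kilobase. Aldh1l1, a folate enzyme gene, reached 13.6 ± 0.428 CPM per kilobase. Sox9, a transcription factor gene of glial identity, was lowest at 2.27 ± 0.477 CPM per kilobase. Apart from the overlapping pairs named, no neighbours in this order overlapped. On this scale Glul lay at percentile 99.9 of the detected genes and Sox9 at percentile 67.5.

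**Figure D1:**
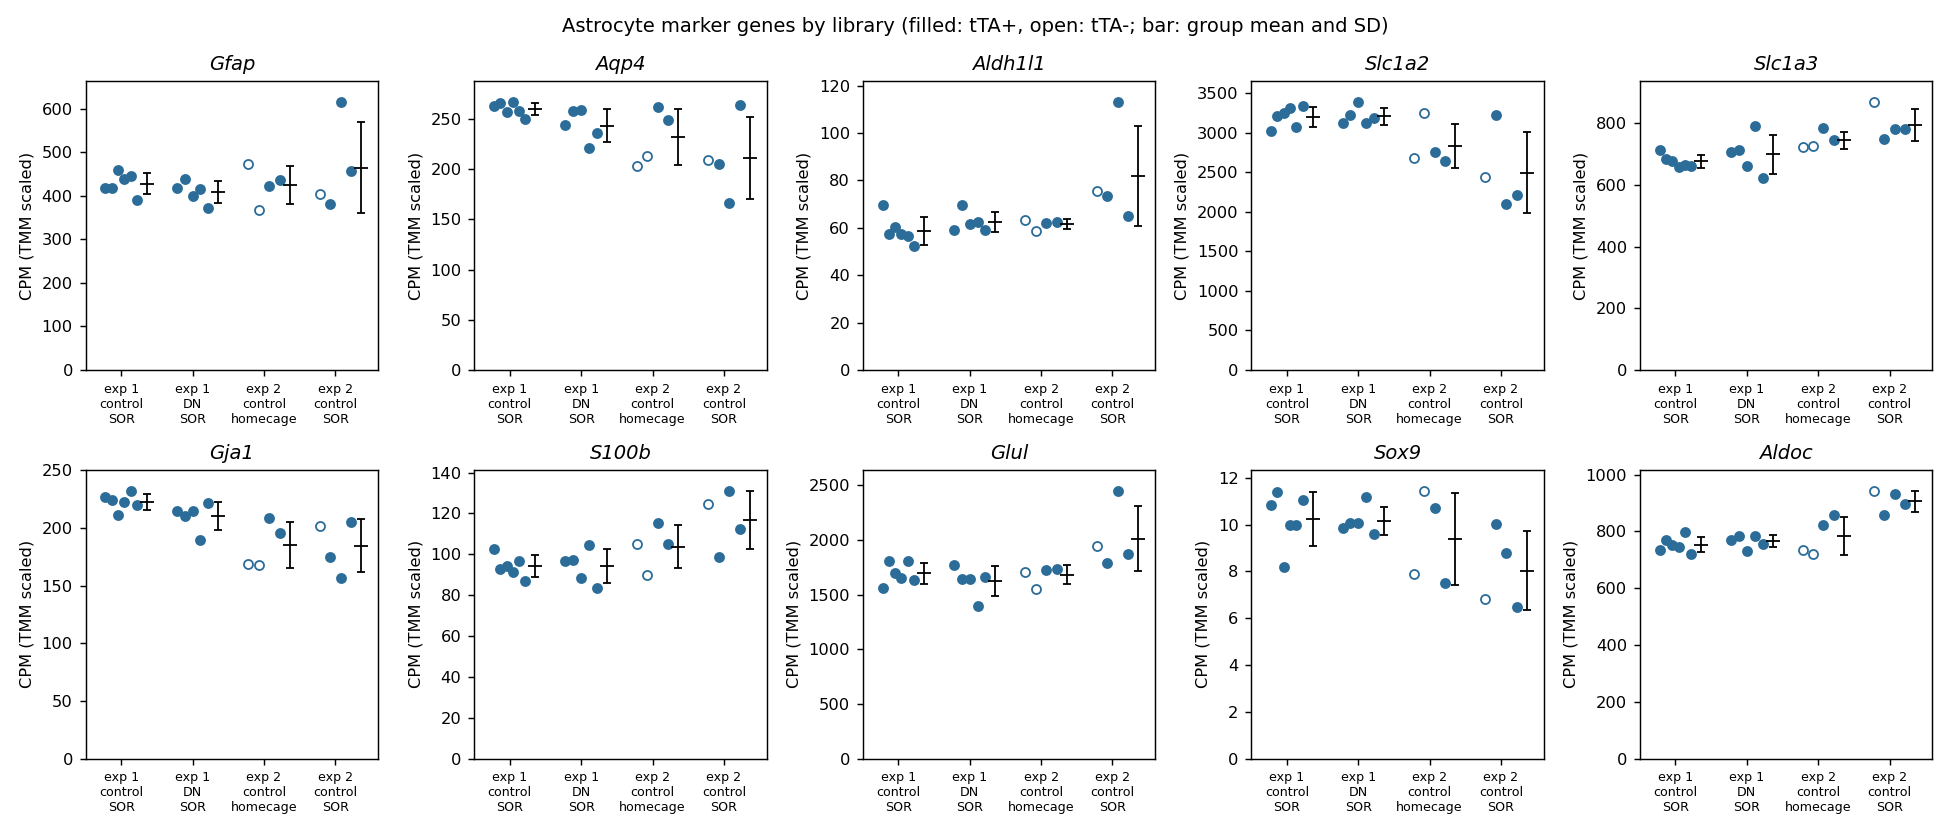
TMM-scaled CPM (vertical axes, from 0) of the 10 astrocyte marker genes in each of the 19 libraries by group, with filled points for tTA+ and open points for tTA- mice and bars for the group mean and SD. The third SOR library of experiment 2 is the highest of its experiment for Gfap (615 CPM) and Aldh1l1 (112.9 CPM) and the lowest for Aqp4 (166 CPM).

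Promoter windows are shown for Aldh1l1, the member with the largest fitted difference after SOR, and for the connexin genes Gja1 and Gjb6, of which Gjb6 was called after SOR and Gja1 was not. They come from RefSeq on GRCm38.p6, are read 5′ to 3′ on the gene's strand, and end at the base before the annotated start. For Aldh1l1 the 246 bases before any annotated coding exon are given. Capitals mark matches to the searched motifs.
Aldh1l1, chr6:90550543-90550788, plus strand: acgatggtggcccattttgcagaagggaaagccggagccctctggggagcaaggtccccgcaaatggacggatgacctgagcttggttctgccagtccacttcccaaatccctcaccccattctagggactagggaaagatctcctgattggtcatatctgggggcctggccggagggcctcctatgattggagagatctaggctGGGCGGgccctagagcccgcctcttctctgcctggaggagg
Gja1, chr10:56377050-56377299, plus strand: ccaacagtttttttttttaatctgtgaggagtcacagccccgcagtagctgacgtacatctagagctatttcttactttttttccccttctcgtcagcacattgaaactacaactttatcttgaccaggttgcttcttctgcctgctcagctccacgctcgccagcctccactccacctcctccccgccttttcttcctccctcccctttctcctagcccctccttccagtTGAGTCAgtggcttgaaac
Gjb6, chr14:57133612-57133861, minus strand: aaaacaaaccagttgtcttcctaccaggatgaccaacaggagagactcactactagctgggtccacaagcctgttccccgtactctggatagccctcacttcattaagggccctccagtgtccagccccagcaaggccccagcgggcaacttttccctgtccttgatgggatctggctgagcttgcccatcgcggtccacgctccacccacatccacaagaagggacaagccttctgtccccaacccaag

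The table of windows held 8 of the 10 members, with 9 windows of 250 bases, since Aldoc has more than 1 annotated start; Aqp4 and Sox9 had no entry. The NBRE, the monomer element of the Nr4a receptors (AAAGGTCA), was searched on both strands and matched 0 of the 9 member windows and 1.34% of all 32851 windows. The cyclic AMP response element (TGACGTCA) also matched 0 of 9, against 1.55% of all windows, and the glucocorticoid response element 0 of 9, against 0.387%. The AP-1 element (TGANTCA) matched 1 of 9, that of Gja1 from base -19 to base -13, against 6.75%. The STAT element (TTCNNNGAA) matched 2 of 9, in Slc1a3 and Aldoc, against 7.02%, and the GC box (GGGCGG) 4 of 9, in Aldh1l1, Slc1a3, Glul and Aldoc, against 32.7%. No matches of different motifs overlapped, and the Gjb6 window held none. A match is a run of letters, and no match says only that these letters are not in this window.

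Between DN and control mice, none of the 10 genes was called in experiment 1 (edgeR quasi-likelihood test, adjusted p under 0.05; DESeq2 also 0), where 2 of 22391 genes tested, 0.00893%, were called. At an unadjusted p under 0.05, 2 members, Aqp4 and Gja1, were lower and 0 were higher, against 1.81% of all genes lower and 2.02% higher. That count of 2 became 0 without control replicate 2 or DN replicate 4, and 1 without control replicate 4 or 5 or DN replicate 2 or 5. Aqp4, whose protein sits in endfeet, and Gja1, whose protein forms the gap junction channels between astrocytes, fell short of the adjusted threshold by a wide margin, both with an adjusted p of 0.999 in edgeR. Fitted log2 fold changes of the 10 genes lay between -0.10 (Aqp4) and 0.09 (Aldh1l1), 5 above and 5 below 0 (50.0% of all genes each way), with a median of -0.0043 beside 6.16e-05 over all genes tested. The 95% intervals of all 10 together spanned -0.18 to 0.22. In no member were the groups apart, as in 0.299% of all genes. In whole tissue, fewer cells of a type and less RNA per cell cannot be told apart.

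In DN replicates 1 to 5, the levels of Aqp4 were 243.8, 258.3, 259.1, 220.9 and 236 CPM. The 6 control libraries ran from 249.7 through a median of 260.8 to 266.7 CPM. The 3 lowest DN libraries lay under every control library and the other two inside the control range. The fitted log2 fold change was -0.10 (SE 0.0403), and the DN libraries spread more, with an SD of 16.1 CPM against 6.37.

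Gja1 was at 214.8, 210.2, 215, 189.7 and 222 CPM in the DN libraries. Control libraries ran from 210.9 through 223.2 to 232 CPM. DN replicate 4 was again the lowest, and the groups overlapped. For Gja1 the log2 fold change was -0.08 (SE 0.0394; 95% interval -0.16 to -0.00064).

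Of the glutamate genes, Slc1a2 stood at 3117, 3223, 3380, 3116 and 3181 CPM in DN mice, and at 3015 (lowest), 3224 (median) and 3338 (highest) in control mice. The groups overlapped throughout, with a log2 fold change of 0.0027 (SE 0.0343). Slc1a3 stood at 707, 712.3, 661.6, 790.4 and 622.2 CPM in DN mice. Control mice ran from 657.8 through 670.8 to 714 CPM, so the DN libraries held both the highest and the lowest value of the experiment. Glul stood at 1773, 1642, 1643, 1399 and 1659 CPM in DN mice. Control mice ran from 1561 through 1675 to 1813 CPM, and only DN replicate 4 lay below them. Fitted log2 fold changes were 0.05 (SE 0.0471) for Slc1a3 and -0.06 (SE 0.0522) for Glul, the latter running from -0.097 without DN replicate 1 to -0.014 without DN replicate 4.

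The metabolic genes overlapped too. Aldoc stood at 771, 783.9, 732.2, 785.2 and 757.4 CPM in DN mice and ran from 721.5 through 748.2 to 797 CPM in control mice. Aldh1l1 stood at 58.9, 69.6, 61.7, 62.7 and 59.3 CPM in DN mice and ran from 52.2 through 57.2 to 69.6 CPM in control mice. The log2 fold change of Aldh1l1 was the highest among the members at 0.09 (SE 0.0616), and its interval from -0.04 to 0.22 included 0.

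Gfap, the gene followed most often for reactivity, stood at 418, 438.8, 400.3, 416 and 371.5 CPM in DN mice and ran from 390.5 through 428.4 to 459.6 CPM in control mice. Its log2 fold change of -0.07 (SE 0.0451) had an interval from -0.16 to 0.027, so a rise above that size is outside it. S100b stood at 96.7, 97.2, 88.3, 104.7 and 83.6 CPM in DN mice and ran from 86.7 through 93.6 to 102.8 CPM in control mice. Sox9 stood at 9.85, 10.1, 10.1, 11.2 and 9.60 CPM in DN mice and ran from 8.17 through 10.4 to 11.4 CPM in control mice. Both genes overlapped widely, with log2 fold changes of 0.00063 and -0.0093.

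The other gene lists gave no called gene in this comparison either. Of 30 other astrocyte-enriched genes, 0 were called, 1 passed an unadjusted p of 0.05 upward (Acsbg1, an acyl-CoA synthetase gene, log2 fold change 0.08) and 0 downward, and the median log2 fold change was -0.021. Of 24 reactive astrocyte genes, 21 could be tested and 0 were called. The smallest unadjusted p values among them belonged to the small heat shock protein gene Hspb1 (log2 fold change -0.50) and the interferon-induced gene Gbp2 (0.27), with an edgeR adjusted p of 0.999 for both. The 12 genes of the glutamate-glutamine cycle and the 9 endfoot and gap junction partners gave 0 genes at an unadjusted p under 0.05. Choroid plexus markers differed widely between libraries in both groups, with summed levels of their 8 genes from 25.9 to 1663 CPM in DN mice and from 19.7 to 4162 CPM in control mice; their part in these values was not tested.

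**Figure D2:**
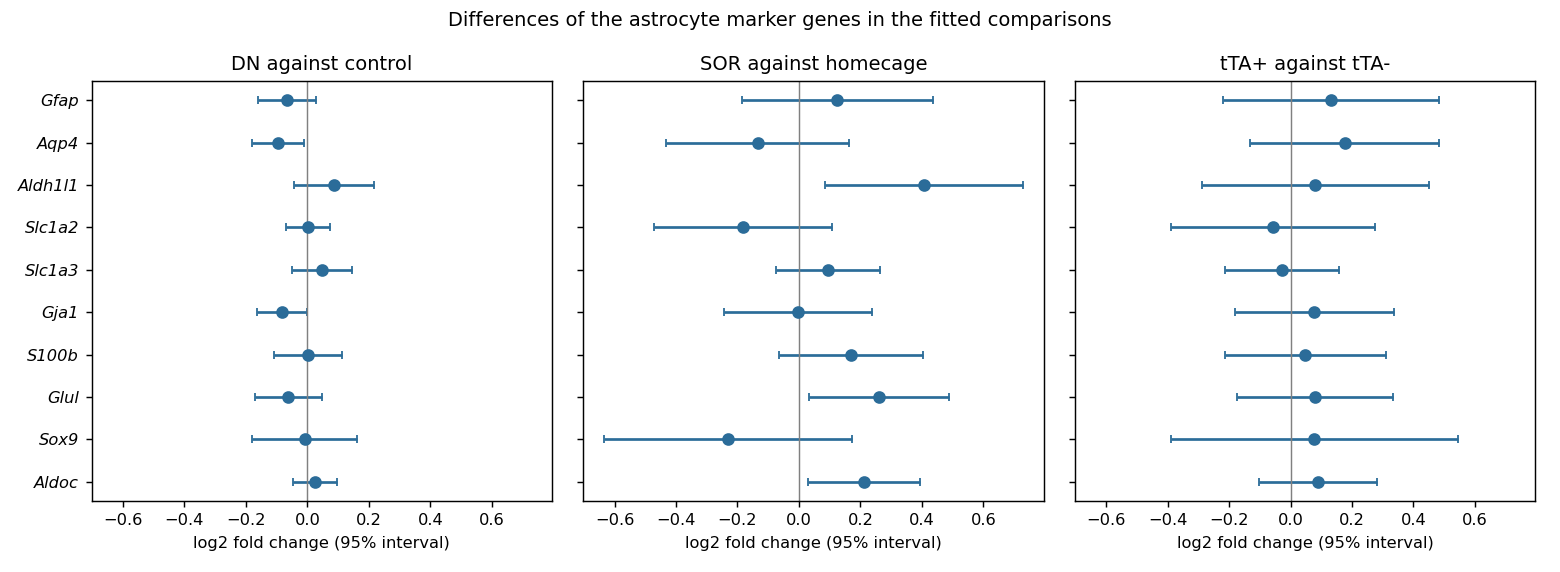
Fitted log2 fold changes (horizontal axes) of the 10 astrocyte marker genes with 95% intervals in the comparisons of DN with control, SOR with homecage and tTA+ with tTA- mice. In the DN comparison all intervals lie between -0.18 and 0.22, and after SOR those of Aldh1l1, Glul and Aldoc lie above 0, none of them past the adjusted threshold.

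Between SOR and homecage control mice, none of the 10 genes was called in experiment 2 (edgeR, adjusted p under 0.05; DESeq2 also 0), where 20 of 22305 genes tested, 0.0897%, were called, all higher after SOR. At an unadjusted p under 0.05, 3 members were higher and 0 lower: Aldh1l1 (folate metabolism), Aldoc (glycolysis) and Glul (glutamine synthesis). With 1 library left out the count ran from 1 (without homecage replicate 1 or 2) to 5 (without SOR replicate 2), and it was 0 among tTA+ mice alone. The same 3 had every SOR library above every homecage library. Over all genes tested, 3.67% were higher and 3.93% lower at that unadjusted p, and 3.06% had SOR wholly above. The 10 genes had 6 log2 fold changes above 0 and 4 below, beside 51.5% and 48.5% of all genes, with a median of 0.11 beside 0.0076 over all genes.

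Aldh1l1 was at 63.3, 58.8, 62 and 62.3 CPM in homecage replicates 1 to 4. In SOR replicates 1 to 4 it was at 75.7, 73.6, 112.9 and 65 CPM. Every SOR library lay above every homecage library, and replicate 3 lay far above the other SOR libraries. Its log2 fold change was 0.41 (SE 0.147; 95% interval 0.086 to 0.73), with an unadjusted p of 0.0174 and an adjusted p of 0.621 in edgeR. Without SOR replicate 3 it was 0.21, with an adjusted p of 0.471 in the same test.

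Glul was at 1711, 1555, 1730 and 1734 CPM in homecage mice. After SOR it was at 1948, 1793, 2448 and 1869 CPM. The groups did not overlap, replicate 3 was again the highest, and homecage replicate 2 the lowest. Its log2 fold change was 0.26 (SE 0.104), adjusted p 0.624 in edgeR, and without SOR replicate 3 it was 0.15.

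Aldoc was at 735.2, 719.2, 821.3 and 858.3 CPM in homecage mice. After SOR it was at 942.1, 859.6, 930.6 and 896.2 CPM. The groups were apart by little, since SOR replicate 2 and homecage replicate 4 were nearly equal. SOR mice gave a log2 fold change of 0.21 (SE 0.0837), adjusted p 0.621 in edgeR, and 0.20 without SOR replicate 3. Among tTA+ mice alone it was 0.09, with an adjusted p of 0.998.

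The glutamate transporter genes gave smaller or opposite differences. Slc1a2 was at 2674, 3244, 2759 and 2636 CPM in homecage mice and at 2444, 3223, 2102 and 2205 CPM after SOR. Replicate 2 of each group was the highest, the other SOR libraries lay below all homecage libraries, and the log2 fold change was -0.18 (SE 0.133). It was -0.11 without SOR replicate 3 or homecage replicate 2, and -0.33 without SOR replicate 2. Slc1a3 was at 722.6, 725.5, 783.4 and 745 CPM in homecage mice and at 867.4, 747.7, 782.4 and 780.2 CPM after SOR. It overlapped, with a log2 fold change of 0.09 (SE 0.0775), or 0.10 without SOR replicate 3. Over all alternatives tried, that of Slc1a3 went as low as 0.0092. In tTA+ mice its mean was 764.2 CPM in homecage mice and 770.1 CPM after SOR.

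Gja1 was at 168.7, 167.7, 208.4 and 196 CPM in homecage mice and at 201.8, 175.2, 156.5 and 205.5 CPM after SOR. The groups overlapped and the log2 fold change was -0.0034 (SE 0.110; 95% interval -0.24 to 0.24); without SOR replicate 3 it was 0.068. Aqp4 was at 203.3, 213.7, 262.2 and 248.9 CPM in homecage mice and at 209.4, 205, 166 and 264.6 CPM after SOR. It overlapped as well, with a log2 fold change of -0.13 (SE 0.135). Without SOR replicate 3, the lowest library, that of Aqp4 was -0.036, and without SOR replicate 4, the highest, it was -0.26.

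Gfap was at 474.4, 368.6, 423.8 and 437.6 CPM in homecage mice and at 405, 382, 615 and 457.4 CPM after SOR. Only SOR replicate 3 lay above the homecage libraries. The log2 fold change was 0.13 (SE 0.142) and changed sign without that library, to -0.039. S100b was at 105, 89.6, 115.1 and 104.9 CPM in homecage mice and at 124.4, 98.6, 130.9 and 112.4 CPM after SOR, with a log2 fold change of 0.17 (SE 0.107), or 0.11 without SOR replicate 3. Sox9 was at 7.91, 11.4, 10.7 and 7.50 CPM in homecage mice and at 6.82, 10.04, 8.80 and 6.46 CPM after SOR, with a log2 fold change of -0.23 (SE 0.184). For Sox9 it was -0.28 without SOR replicate 3, -0.36 without SOR replicate 2 and -0.12 without homecage replicate 2. Both overlapped.

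The third SOR library took an extreme position in 7 of the 10 genes, and the share over all genes was not counted. It was the highest library of experiment 2 for Gfap, Aldh1l1, S100b and Glul, whose exons sum to between 1484 and 4516 bases, and the lowest for Aqp4, Slc1a2 and Gja1, whose exons sum to between 6233 and 13133 bases. Relative to the mean of the other SOR libraries it was 1.58 times as high for Aldh1l1, 1.48 times for Gfap and 1.31 times for Glul, and 0.733 times as high for Aqp4. Slc1a3 (8537 bases), Sox9 (4135 bases) and Aldoc (3263 bases) lay inside the range of the other SOR libraries. Their ratios to that mean were 0.98, 1.132 and 1.035. Members of up to 4516 bases thus lay above the mean of the other SOR libraries, and members of 6233 bases or more lay below it. With 22258159 counts this library was also the smallest, and with 27815 it had the fewest genes detected. Its neuron marker sum was the lowest of experiment 2 (6843 CPM) and its oligodendrocyte precursor sum the highest (313.7 CPM). Its oligodendrocyte and microglia marker sums lay inside the range of the other libraries. The part of depth or of transcript length in its position was not tested. Homecage replicate 2 was the lowest library for Gfap, Aldh1l1, S100b, Glul and Aldoc and the highest for Slc1a2 and Sox9.

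**Figure D3:**
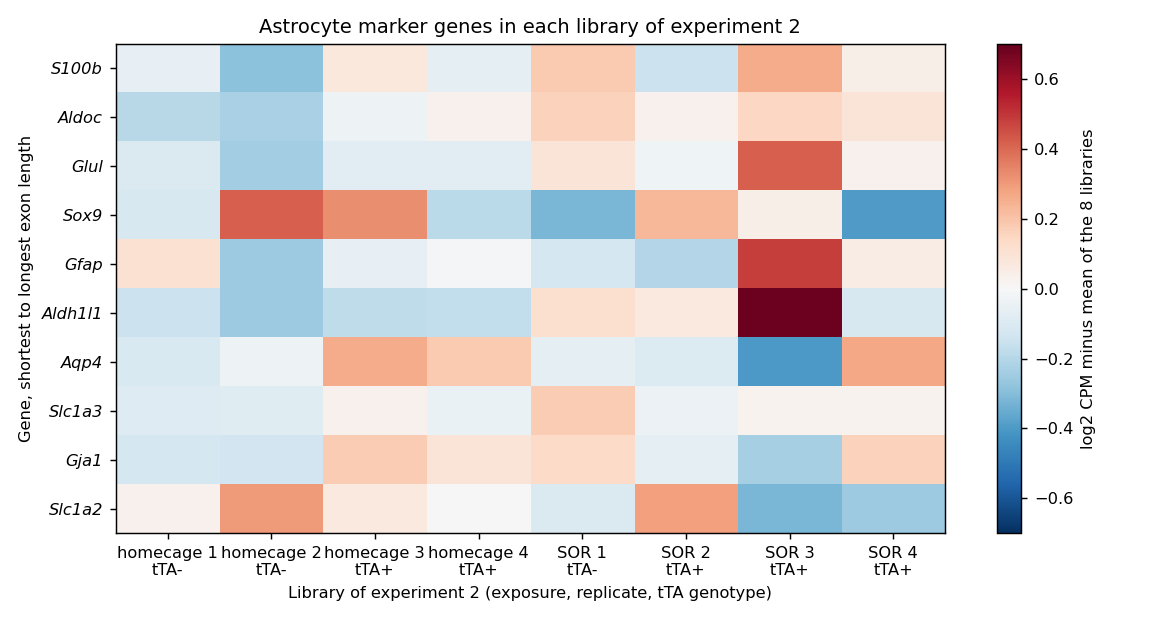
Difference of each gene's log2 CPM from its mean over the 8 libraries of experiment 2 (colour, red above and blue below the mean), with genes from the shortest exon length (S100b, 1484 bases) to the longest (Slc1a2, 13133 bases). The third SOR library runs from red in the shorter genes Glul, Gfap and Aldh1l1 to blue in the longer genes Aqp4, Gja1 and Slc1a2, while Slc1a3, Sox9 and Aldoc stay inside the range of the other SOR libraries.

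Among the 30 other astrocyte-enriched genes, 1 was called in edgeR, Gjb6, higher after SOR, and 0 were called lower (DESeq2 3 higher, Gjb6, Dio2 and Mertk, and 0 lower); 5 were higher and 0 lower at an unadjusted p under 0.05. Their median log2 fold change was 0.10, near the members' 0.11. Gjb6 encodes connexin 30, which forms astrocyte gap junctions together with the connexin 43 of Gja1. It was at 39.3, 37.2, 44.7 and 45.0 CPM in homecage mice. After SOR it was at 80.9, 61.4, 79.3 and 62.0 CPM. The groups were well apart, with a log2 fold change of 0.77 (SE 0.117) and an adjusted p of 0.0427 in edgeR, higher in 4 of 4 SOR libraries. DESeq2 gave an adjusted p of 5.55e-06. In edgeR the adjusted p was 0.0259 without SOR replicate 3, 0.106 with tTA genotype as a covariate and 0.998 among tTA+ mice alone, where the log2 fold change was 0.59. It was also over 0.05 when any 1 homecage library (0.138 to 0.265) or SOR replicate 1 (0.182) was left out, while the log2 fold change stayed between 0.70 and 0.83.

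The ratio of Gjb6 to Gja1, taken after their values were seen and so given without a test, was -2.15 ± 0.0534 on the log2 scale of CPM in homecage mice (SD, n = 4) and -1.39 ± 0.317 after SOR (n = 4). In the DN comparison it was -1.94 ± 0.119 (n = 5) against -1.99 ± 0.0874 in control mice (n = 6). Gjb6 itself gave a log2 fold change of -0.03 between DN and control mice (SE 0.0748, adjusted p 0.999 in edgeR).

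**Figure D4:**
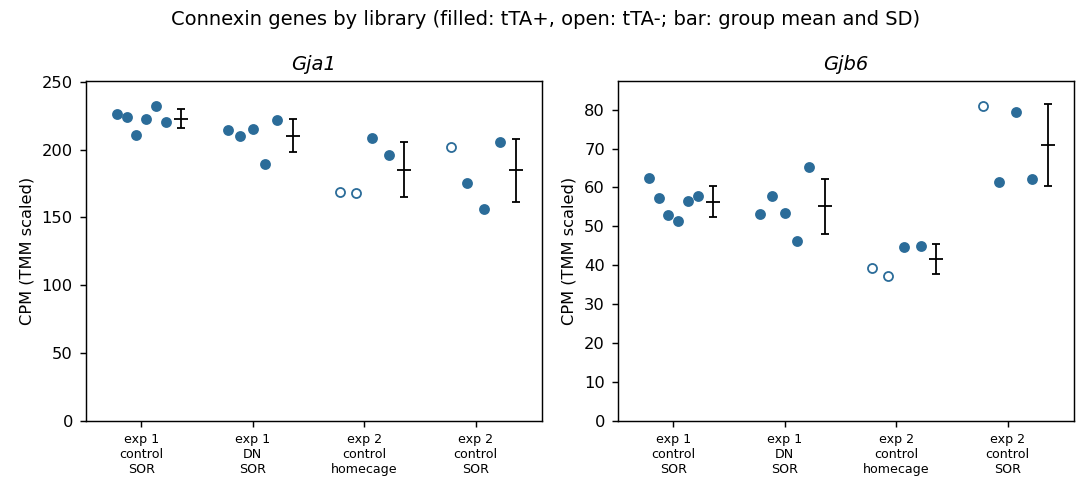
TMM-scaled CPM (vertical axes, from 0) of the connexin genes Gja1 and Gjb6 in each library by group, with filled points for tTA+ and open points for tTA- mice and bars for the mean and SD. The SOR libraries of experiment 2 lie above all homecage libraries for Gjb6 (61.4 to 80.9 against 37.2 to 45.0 CPM), while for Gja1 the groups overlap, with the third SOR library below all homecage libraries (156.5 CPM).

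Dio2, the deiodinase by which astrocytes make active thyroid hormone, came next among the astrocyte-enriched genes, at 122.9 ± 9.43 CPM after SOR against 91.2 ± 2.50 in homecage mice (SD, n = 4 each; log2 fold change 0.43, adjusted p 0.113 in edgeR). Mertk, a phagocytic receptor gene, was at 52.8 ± 5.08 against 37.6 ± 3.16 CPM (SD, n = 4 each; log2 fold change 0.49, adjusted p 0.157 in edgeR; named after its values were seen). Neither was called in that test. DESeq2 called both (adjusted p 0.000114 for Dio2 and 0.00268 for Mertk), as did edgeR in 1 fit of all 19 libraries (0.0136 and 0.0122). That fit uses 1 spread per gene for both experiments. Fitted alone, the common biological coefficient of variation was 0.094 in the DN comparison and 0.169 in the SOR comparison. Without SOR replicate 3 both were called (edgeR adjusted p 0.0115 and 0.041), while with any other library left out neither was, with an adjusted p of up to 0.584 for Dio2 and 0.661 for Mertk, and it was 0.998 for both among tTA+ mice alone. With 1 library left out, the log2 fold change stayed between 0.401 and 0.478 for Dio2 and between 0.433 and 0.538 for Mertk. Of the 24 reactive astrocyte genes, 22 were tested and 0 called in edgeR, with 3 higher and 2 lower at an unadjusted p under 0.05; DESeq2 called 1, Hspb1, higher. Hspb1 was at 4.56, 2.75, 4.94 and 3.99 CPM in homecage mice and 8.88, 8.34, 7.66 and 7.52 CPM after SOR, with a log2 fold change of 0.996 (SE 0.177) and an adjusted p of 0.0915 in edgeR. In DESeq2 the adjusted p was 2.45e-05, and in edgeR it was 0.0233 without the filter on low counts and 0.0272 in 1 fit of all 19 libraries. Without SOR replicate 3 it was 0.0447 in edgeR, with any other library left out it was 0.148 to 0.414, and among tTA+ mice alone it was 0.998. The log2 fold change of Hspb1 stayed between 0.849 and 1.11 with 1 library left out. The cell-surface receptor gene Cd44 gave a log2 fold change of -0.58 (adjusted p 0.621). The 12 genes of the glutamate-glutamine cycle gave 0 at an unadjusted p under 0.05.

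Choroid plexus markers differed widely between the libraries of this comparison. Of 8 such markers, 5 were higher after SOR at an unadjusted p under 0.05 and 0 were called, with summed levels of 23.6 to 2203 CPM after SOR and 44.2 to 173 CPM in homecage mice. Ttr ran from 9.46 to 2010 CPM after SOR and from 25.2 to 130.5 in homecage mice. SOR replicate 3, the highest library for Aldh1l1 and Glul, was the lowest of the 8 in this sum. The 8 oligodendrocyte markers summed to 6135 to 7223 CPM after SOR and 5644 to 6729 CPM in homecage mice, and the 7 neuron markers to 6843 to 8018 and 7339 to 7791 CPM. No marker of these lists was at 0 in any library, and the part of other cells in the members' values was not tested beyond this.

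By tTA genotype, none of the 10 genes was called between the 5 tTA+ and 3 tTA- libraries of experiment 2 with exposure in the model (edgeR; DESeq2 also 0), where 82 of 22904 genes tested, 0.358%, were called. At an unadjusted p under 0.05 there were 0 members (1, Aqp4, without SOR replicate 3), against 5.71% of all genes, and in no member were the genotypes apart, as in 5.80% of all genes. Log2 fold changes were above 0 for 8 members and below for 2, Slc1a2 (-0.06) and Slc1a3 (-0.03), beside 53.2% and 46.8% of all genes, with a median of 0.079 beside 0.013 over all genes. The intervals were wide, from -0.39 to 0.54 for Sox9.

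Aqp4 had the largest log2 fold change among the members, 0.18 (SE 0.138, adjusted p 1 in edgeR). It was 0.24 without SOR replicate 3 (edgeR adjusted p 0.363), and from 0.10 (without SOR replicate 4) to 0.30 (without SOR replicate 1) with any 1 library left out. In homecage mice its tTA+ libraries, at 262.2 and 248.9 CPM, lay above the tTA- libraries, at 203.3 and 213.7. After SOR the tTA- library, at 209.4 CPM, lay inside the tTA+ range of 166 to 264.6. Gja1 showed the same arrangement in homecage mice, with 208.4 and 196 CPM in tTA+ against 168.7 and 167.7 in tTA- libraries, and the tTA- SOR library at 201.8 lay inside the tTA+ range of 156.5 to 205.5. The log2 fold change of Gja1 over both exposures was 0.08 (SE 0.117), and 0.12 without SOR replicate 3. With 1 library left out it ran from 0.013 (without homecage replicate 3) to 0.27 (without SOR replicate 1).

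In homecage mice alone, a fit of 2 against 2 libraries, Aqp4 (0.30, adjusted p 0.0346 in edgeR) and Gja1 (0.27, adjusted p 0.0469) were called, among 944 genes called in all (4.17% of those tested). Aldoc, at 821.3 and 858.3 CPM in the tTA+ and 735.2 and 719.2 CPM in the tTA- homecage libraries, gave 0.21 and was not called there (adjusted p 0.112); its tTA- SOR library was the highest of the experiment at 942.1 CPM. For Gfap the mean was 463.2 ± 89.3 CPM over the 5 tTA+ libraries and 416 ± 53.8 over the 3 tTA- libraries (SD), with a log2 fold change of 0.13 (SE 0.158, adjusted p 1 in edgeR). SOR replicate 3, a tTA+ library, was the highest at 615 CPM, and without it the log2 fold change of Gfap was 0.040. With 1 library left out it ran from 0.034 (without SOR replicate 1) to 0.25 (without homecage replicate 1). Aldh1l1, Glul, S100b, Sox9 and Slc1a3 had overlapping genotypes as well, with log2 fold changes from -0.03 to 0.08. Without SOR replicate 3 those of Glul, S100b and Sox9 were 0.016, 0.0089 and 0.054, that of Aldh1l1 was -0.036, and those of Slc1a2, Slc1a3 and Aldoc were -0.020, -0.027 and 0.083.

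Whether the SOR difference itself depended on tTA was tested with an interaction term, in which the tTA- SOR group is 1 library assumed to vary like the others. Of 25045 genes tested, 0 were called (0.00%; edgeR, 561 at an unadjusted p under 0.05, DESeq2 0), and 0 of the 10 members passed the unadjusted p, against 2.24% of all genes. Without SOR replicate 3 the members at that p were 3, and without SOR replicate 4 they were 1. Gja1 came nearest (interaction on the log2 scale -0.45, SE 0.212, edgeR adjusted p 1). For Gjb6 the term was -0.51 (edgeR adjusted p 1). Gjb6 was 1 of 6 genes at an unadjusted p under 0.05 among the 30 other astrocyte-enriched genes, all 6 with a term below 0 and none called. The most negative of them were S1pr1, a sphingosine-1-phosphate receptor gene (-0.59), and F3, the tissue factor gene (-0.55), both with an edgeR adjusted p of 1 and named after their values were seen. In that list 21 of 30 terms were below 0, with a median of -0.15, and 6 of the 10 members were below 0, also with a median of -0.15, beside 52.5% above and 47.5% below 0 and a median of 0.023 over all genes tested. These terms rest on the single tTA- SOR library and could not be fitted without it.

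Few genes of the other gene groups were called in the tTA comparison. All 7 microglia and all 5 ependyma markers had log2 fold changes above 0, but 2 of 5 endothelial and 3 of 7 neuron markers, beside 53.2% of all genes. Of the 12 glutamate-glutamine cycle genes, 3 had the genotypes apart, beside 5.80% of all genes, and 0 were called in edgeR. Of the other astrocyte-enriched genes 0 of 30 were called and 1 was higher at an unadjusted p under 0.05 (Fabp7, a fatty-acid-binding protein gene of immature glia, 0.52, adjusted p 0.842). Reactive astrocyte genes gave 0 of 22 tested at that p. Of 5 granule cell markers, 4 had log2 fold changes below 0, all at an unadjusted p under 0.05, and 1, Pdzd2, was above 0 (0.38, edgeR adjusted p 0.94), with a median of -0.67. The markers C1ql2 and Dsp were called lower in tTA+ mice: C1ql2 was at 15.7 to 26.1 CPM in tTA+ and 81.4 to 93.5 CPM in tTA- libraries, and Dsp at 32.4 to 48.3 against 69.5 to 90.6 CPM. These markers belong to neurons of the dentate gyrus, and their part in the members' values was not tested.

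The 10 genes varied together only in part between libraries. With group means removed, the Pearson r of a gene with the mean of all 10 members, which contains the gene itself for a member, was 0.72 in the 11 libraries of experiment 1 and 0.74 in the 8 of experiment 2 for S100b, and 0.64 and 0.65 for Aldh1l1. It was 0.60 and 0.51 for Gfap, 0.50 and 0.66 for Aldoc, 0.57 and 0.42 for Slc1a3, and 0.29 and 0.27 for Sox9. Slc1a2 was below 0 in both (-0.43 and -0.40), Aqp4 only in experiment 2 (0.47 and -0.096), and Gja1 was near 0 in both (0.0022 and 0.086). Glul went from 0.087 in experiment 1 to 0.73 in experiment 2. Because that mean contains each member, an r above 0 is partly built in, so no count of members above 0 is drawn from these values. Among 11772 genes ranked by the smaller of both values, members left out, the most alike were Ube2z, a ubiquitin-conjugating enzyme gene (0.94 and 0.95), Cdc42ep4, a Cdc42 effector gene (0.90 and 0.87), Odc1, which encodes ornithine decarboxylase (0.89 and 0.85), Cd81, a tetraspanin gene (0.85 and 0.89), and Ykt6, a SNARE gene (0.86 and 0.84). The libraries share depth and composition differences, and these values describe likeness only.

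In experiment 1 the extremes were spread over libraries. DN replicate 4 was the highest for Slc1a3 and S100b and the lowest for Aqp4, Gja1 and Glul. DN replicate 5 was the lowest for Gfap, Slc1a3 and S100b, and control replicate 5 the highest for Gja1, Glul and Aldoc. The log2 fold change of Slc1a3 between DN and control mice was -0.0025 without DN replicate 4, and that of Aqp4 stayed below 0 whichever library was left out (-0.12 to -0.063).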

How the data were processed

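The deposited data were 1 table of whole-number counts per gene, made by the authors from ribosomal-RNA-depleted total RNA. The submitters' processing notes name STAR, SAMtools 1.6, featureCounts 1.4.4 and mm10, without roles. The annotation, strand use and treatment of multiply mapped reads were not given in the sources used here. Symbols and exon lengths (merged exons) came from GENCODE release 21 of the mouse series (M21) on GRCm38, which held 51596 of 51789 identifiers. Annotated genes overlap exons of Aldh1l1, Slc1a2 and Glul, with at most 4821 counts in total in the overlapping gene (Slc1a2 itself held 2253306).

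Each experiment was fitted alone with edgeR 4.0.16 in R 4.3.3 (TMM, filterByExpr, robust quasi-likelihood F test, two-sided, Benjamini-Hochberg over all genes tested, called at an adjusted p under 0.05). Group and genotype came from the labels. SE is the log2 fold change over the square root of F. Between replicates, chi-square per degree of freedom was 4.63 to 73.4 over genes with at least 20 counts, so no library was counted as a repeat. The scripts were tested on simulated data. Of 50 genes simulated with a 1.5-fold difference, 38 were called in the DN comparison, 23 in the SOR comparison and 23 in the tTA comparison. With 200 changed genes in each, false calls were 8, 7 and 14. DESeq2 1.42.0, other scaling, no filter, a threshold of 0.1, a replicate block, tTA terms, 1 fit of all 19 libraries and leaving out each library were tried as alternatives. The prior count in log2 CPM was 2.

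The members and lists were chosen with earlier results of these data known. Named are all members, from other lists the called genes or else at most 2 per list and comparison by smallest unadjusted p, the first markers of a cell type, and the 5 genes most alike to the members' mean among genes of at least 5 CPM. 1 gene of the lists is not reported here.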

Additional observations from a re-analysis of the deposited data

Results flagged for a closer look

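Of the group levels of the members and Gjb6 examined, 1 had a library standing apart from the rest of its group by Dixon's criterion. Glul in homecage mice was at 1555 CPM in replicate 2, and the nearest other library was at 1711 CPM, a gap of 0.867 of the group's range against a critical value of 0.829 for 4 libraries. Chance marks about 1 in 20 groups, so 1 of 44 is under that rate. The third SOR library was not marked by this criterion in any member or in Gjb6.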

How the results depend on the processing

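No member was called under any alternative run, except 2 (Aqp4 and Gja1) in the tTA comparison within homecage mice. All members had counts in all libraries; replicate spread and the 3 tTA- libraries limit precision. In the SOR comparison the 20 calls became 36 without a filter, 116 in DESeq2, 35 at an adjusted p under 0.1, 145 in 1 fit of all libraries, 11 with tTA as a covariate, 0 in tTA+ mice alone, 48 with tTA as a covariate and SOR replicate 3 left out (added after seeing the data), and 1 (without homecage replicate 1, 2 or 3) to 50 (without SOR replicate 3) with 1 library left out. In the tTA comparison the 82 became 265, 255, 133 and 383 under the first 4 of these, 944 in homecage mice alone, and 10 (without SOR replicate 1) to 290 (without SOR replicate 3) with 1 library left out. The interaction's 0 became 19 without a filter; without SOR replicate 1 it could not be fitted. The DN count was 2 throughout. Members at an unadjusted p under 0.05 with the block were 1 for DN and 5 for SOR, and for DN 0 in 1 fit of all libraries. The share of all genes at that p was not counted in the alternatives, so these counts have no share to be read against.

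Same-numbered replicates mostly did not deviate together (correlations -0.044 to 0.31 in experiment 1, 0.065 to 0.48 in experiment 2). The own number was the best match in 1 of 9, replicate 2 of experiment 2 (0.48). With a replicate block, calls were 2 for DN, 9 for SOR (Gjb6 adjusted p 0.0848) and 0 for tTA (edgeR).

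Several log2 fold changes changed sign. With the block these were DN S100b -0.026 and Sox9 0.018, and tTA Gfap -0.072, Aldh1l1 -0.071, Slc1a2 0.25, S100b -0.038, Glul -0.060 and Gjb6 -0.050. DN S100b was -0.00097 with DESeq2's size factors and -0.0012 in DESeq2. SOR Gja1 was 0.0039 in 1 fit of all libraries, and, under the added alternative, Gja1 was 0.054 and Gfap -0.045. tTA Sox9 was -0.0012 without a covariate and -0.087 in homecage mice alone, where Slc1a3 was 0.080. With 1 library left out, DN values ran from -0.017 to 0.016 (Slc1a2), -0.0025 to 0.087 (Slc1a3), -0.042 to 0.042 (S100b), -0.067 to 0.024 (Sox9) and -0.099 to 0.026 (Gjb6). SOR values ran from -0.039 to 0.21 (Gfap) and -0.059 to 0.068 (Gja1). tTA values ran from -0.036 to 0.13 (Aldh1l1), -0.15 to 0.032 (Slc1a2), -0.071 to 0.080 (Slc1a3), -0.031 to 0.18 (S100b), -0.085 to 0.26 (Sox9) and -0.052 to 0.23 (Gjb6). Values that kept their sign ran, for DN, from -0.094 to -0.033 (Gfap), 0.044 to 0.14 (Aldh1l1), -0.10 to -0.048 (Gja1) and 0.011 to 0.041 (Aldoc), for SOR from 0.21 to 0.50 (Aldh1l1), 0.050 to 0.12 (Slc1a3), 0.105 to 0.24 (S100b), 0.15 to 0.31 (Glul) and 0.17 to 0.26 (Aldoc), and for tTA from 0.016 to 0.11 (Glul) and 0.044 to 0.21 (Aldoc). Over all alternatives, SOR values went as low as -0.18 (Gja1), 0.049 (S100b) and 0.0092 (Slc1a3). The causes were not tested.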

Other observations

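Oligodendrocyte-lineage markers, which share the tissue with the astrocyte genes, gave 0 called genes in each comparison (edgeR; DESeq2 also 0). After SOR, 7 of 8 oligodendrocyte markers had log2 fold changes above 0 (median 0.14), and of 5 precursor markers 2 were above and 3 below 0 (median -0.017). Mobp, a myelin gene, gave 0.28 (adjusted p 0.541 in edgeR), and Gpr17, a gene of differentiating precursors, 0.40 (adjusted p 0.413), both with every SOR library above every homecage library, as in 3.06% of all genes. Between DN and control mice, 7 of 8 oligodendrocyte markers were below 0 (median -0.024), and 2, the myelin genes Mbp and Cldn11, were lower at an unadjusted p under 0.05 (-0.11 each, edgeR adjusted p 0.999). All 8 oligodendrocyte markers and all 5 precursor markers had log2 fold changes above 0 in tTA+ mice, with medians of 0.17 and 0.20 beside 0.013 over all genes tested; none was called (smallest edgeR adjusted p 0.816).

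Radial glia-like cells of the dentate gyrus share several genes with astrocytes. Their 5 markers gave 0 genes at an unadjusted p under 0.05 in the DN, SOR and tTA comparisons, and summed to between 105.6 and 122.4 CPM over all 19 libraries. After SOR, 2 of them were above and 3 below 0, with log2 fold changes from -0.13 to 0.15 and a median of -0.0013 (smallest edgeR adjusted p 0.714).

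Of 21 paralogs of the members, 20 were tested and 0 were called in each comparison (edgeR; DESeq2 also 0). The water channel gene Aqp1, also a choroid plexus marker, gave a log2 fold change of 3.48 after SOR (adjusted p 0.579 in edgeR), with 0.379 to 16.3 CPM after SOR and 0.335 to 0.956 in homecage mice, so the groups overlapped. Aqp11 gave -0.33 in tTA+ mice (adjusted p 0.39). Markers of microglia (7), endothelium (5), ependyma (5) and blood (5) also gave 0 called genes in each comparison in both tools. After SOR, 2 of 7 microglia markers were higher and 0 lower at an unadjusted p under 0.05 in edgeR, beside 3.67% and 3.93% of all genes. Of these 7 markers, 3 were above and 4 below 0. The smallest adjusted p among these lists was that of the endothelial gene Ly6c1 after SOR (0.489 in edgeR, log2 fold change 0.56), whose libraries overlapped. In the same list 3 of 5 endothelial markers were below 0, among them the transporter gene Slco1a4 (log2 fold change -0.30, unadjusted p 0.0109 and adjusted p 0.608 in edgeR), with every SOR library below every homecage library (named after its values were seen).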
